A study of Homo sapiens with 4 samples.

Results

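The 31 genes described here belong to the p53, BCL2 family and caspase branch of programmed cell death. They were chosen by name from the 60671 genes of the deposited table, and all 31 were found. RNA was measured in 4 libraries of H9, an established line of human embryonic stem cells kept in mTeSR medium, after enrichment of transcripts with a poly(A) tail. Control cells gave 2 libraries, labelled as control, and the labels give no treatment for any library. The other 2 libraries came from cells in which the CFIm25 gene had been edited with CRISPR/Cas9 and 3Flag-CFIm25 was overexpressed, called KO+OE here. CFIm25 is the subunit of cleavage factor Im that binds nascent RNA upstream of the poly(A) site, and it is encoded by NUDT21. The study describes the added copy as a lentiviral cDNA behind the EF1 promoter, placed in a single edited clone that still made a small amount of an N-terminally shortened CFIm25. The study used both plain H9 cells and mock controls, which it describes as clones that had received the empty editing vector. The labels do not say which of these gave the control libraries here. Cells with the edit and no added copy were not analysed here, so the comparison asks how close the re-expressing line stood to control cells in the genes of cell death. Neither the labels nor the methods say that the 2 libraries of a group came from separate cultures, so p-values measure the spread between these libraries, which may be technical.

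Mitochondrial apoptosis is set by binding between BCL2 family proteins. BAX and BAK1 open pores in the outer mitochondrial membrane, the anti-apoptotic members (BCL2, BCL2L1, MCL1 and their relatives) hold them back, and the BH3-only members bind the anti-apoptotic proteins or activate BAX and BAK1 directly. Cytochrome c released through the pores assembles APAF1 and CASP9 into the apoptosome, which starts the caspase cascade, while inhibitor of apoptosis (IAP) proteins restrain caspases and are themselves removed by DIABLO. p53 raises transcription of BAX, BBC3 and PMAIP1, and MDM2 and MDM4 keep p53 low or silent. Human embryonic stem cells are known for entering apoptosis readily after DNA damage, and for holding active BAX at the Golgi.

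The sequence that joins the BCL2 family is the BH3 core. It was searched by a strict pattern of leucine or methionine, followed at set places by glycine, alanine or serine and then aspartate. The pattern matched in the coding sequence of 15 of the 16 BCL2 family genes of the group, all but BCL2A1. That BCL2A1 had no match says only that its sequence departs from this pattern. Where a gene had several matches, one with glycine was kept if present. The matched stretch is shown for the 7 genes at the highest levels. The first capitals mark the codon of the conserved leucine, and the second capitals the codons of the small residue and the aspartate that follow it. The stretches were read 5′ to 3′ from the coding sequence of GENCODE transcripts.
BAX: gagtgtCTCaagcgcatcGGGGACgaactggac
BAK1: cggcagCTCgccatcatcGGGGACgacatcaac
BAD: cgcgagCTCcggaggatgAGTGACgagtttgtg
BID: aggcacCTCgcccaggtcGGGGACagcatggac
BBC3: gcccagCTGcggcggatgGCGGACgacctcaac
BCL2L1: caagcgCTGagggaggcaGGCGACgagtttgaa
MCL1: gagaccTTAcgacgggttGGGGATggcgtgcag

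The caspases share the codons around their catalytic cysteine, which stood in the coding sequence of all 7 caspase genes of the group. The stretches of the 4 caspase genes whose levels could be tested are shown. The capitals mark the 5 codons of the active site.
CASP9: ttcatcCAGGCCTGTGGTGGGgagcag
CASP8: tttattCAGGCTTGTCAGGGGgataac
CASP6: atcattCAGGCATGTCGGGGAaaccag
CASP2: ttcatcCAGGCCTGCCGTGGAgatgag

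Levels are given in TPM, the reads of a gene per transcript length scaled to a common total in each library, so genes can be set side by side. The depth of the libraries is unknown because the table holds no counts, and 62.987% to 63.447% of genes were listed at 0. Between 12179 and 12332 genes reached 1 TPM in a library. Genes of the mitochondrial genome made up 20.965% and 21.08% of the summed TPM in control, against 21.58% and 22.051% in KO+OE. The part of that difference in the results was not tested. NUDT21 had 160.67 and 152.2 TPM in the control libraries, against 162.09 and 156.6 TPM in KO+OE, which overlapped. The added copy shares the coding sequence of the gene, so this level checks neither the edit nor the labels. All 8 stem cell markers were present, with POU5F1 between 2164 and 2212 TPM and NANOG between 15.85 and 19.89 TPM. Of 8 germ layer markers, GATA6 alone had a mean above 1 TPM, at 5.96 and 8.39 in control and 4.35 and 7.31 in KO+OE, and SOX17 was listed at 0 in every library. Of the fibroblast markers, COL1A1 stood at 53.86 to 55.6 TPM, while DCN, COL3A1 and LUM did not pass 0.08 TPM in any library. In bulk RNA, fewer cells of a type and less RNA per cell cannot be told apart.

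The 31 genes covered the range from BAX, at a mean of 265 TPM over the 4 libraries, to CASP1, CASP4 and BCL2A1, which were listed at 0 in all 4. There were 10 genes at a mean of 10 TPM or more, 12 between 1 and 10 TPM, and 9 under 1 TPM. BAX, BCL2L1 and DIABLO were the highest, in that order, and the ranges of their 4 libraries did not overlap with each other or with the next gene. BAD and BAK1 came next with overlapping ranges, followed by BID, BBC3, MCL1 and BOK, each clear of the next. From BMF down to MDM2 each gene's range overlapped with that of its neighbour, so the order there is not fixed by these libraries. BAX stood above 99.3% of all genes of the table and BCL2L1 above 98.7%.

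**Figure D1:**
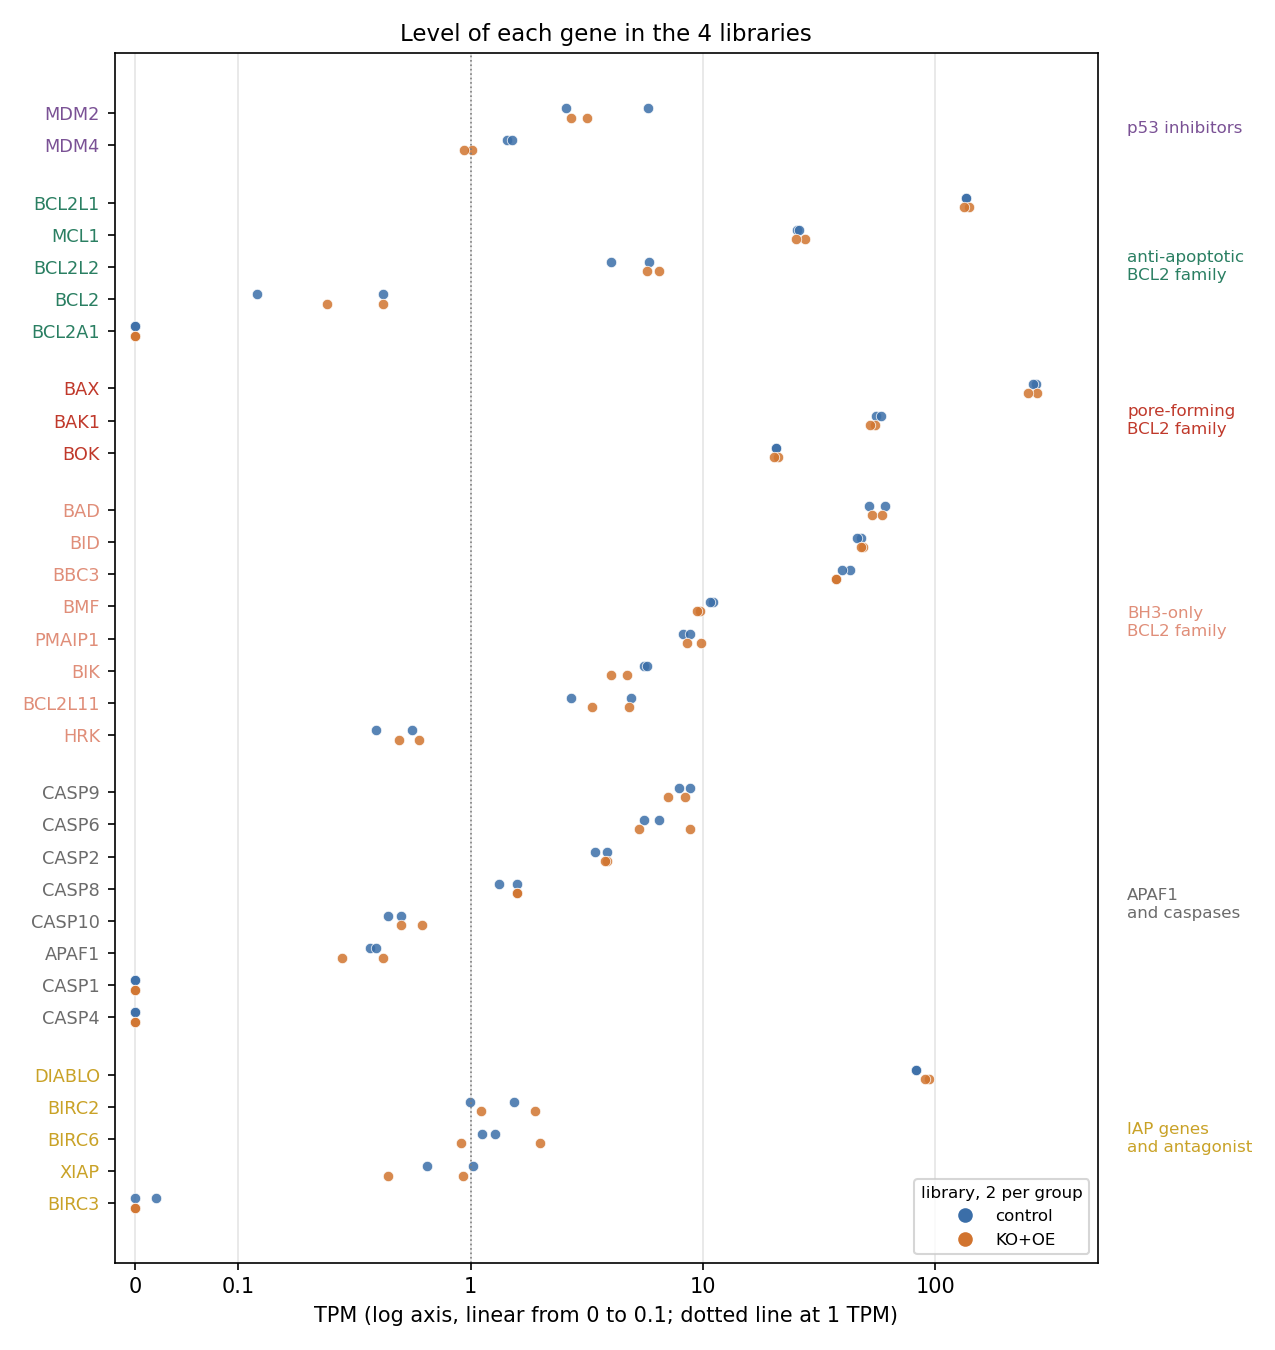
Level of each of the 31 genes in TPM (log axis, linear from 0 to 0.1 TPM) in the 2 control libraries (blue) and the 2 KO+OE libraries (orange), grouped by role, with a dotted line at 1 TPM. BAX and BCL2L1 lie farthest to the right, the 2 groups lie close together for most genes, and CASP1, CASP4 and BCL2A1 lie at 0.

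Expression was compared between the groups with limma on log2(TPM + 1) for genes whose mean reached 1 TPM, and p-values were adjusted over all genes tested. For genes of low level this scale makes a change look smaller than it is. Of the 31 genes, 22 were tested and none passed an adjusted p of 0.05, with adjusted p between 0.928 and 0.997. Across all 12319 genes tested the share that passed was 0.00812%, which is 1 gene (AC125388.1, named after its value was seen, and not among the 31). At an unadjusted p of 0.05 the limma test passed 2 of the 22, DIABLO higher and BIK lower in KO+OE, against 5.33% of all genes. With only 22 genes tested, 1 gene more or fewer would move their share by more than its distance from the background. The 2 libraries of KO+OE lay wholly above those of control for 1 of the 22, DIABLO, against 14.5% of all genes tested. They lay wholly below for 5 of the 22, namely MDM4, BAK1, BBC3, BMF and BIK, against 19.6% of all genes tested. With 2 libraries against 2, an exact two-sided permutation test of a single value cannot go below p = 0.333.

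The intervals of the log2 fold change say how large a difference on the log2(TPM + 1) scale these libraries leave possible. On that scale the 95% interval lay within a 2-fold difference in either direction for 21 of the 22 genes tested, all but MDM2. It lay within 0.5 on the log2 scale for 13 of them. For genes near 1 TPM the difference in TPM itself is larger, so it can pass 2-fold within such an interval. For MDM4 the fold was 0.80 on this scale and the ratio of mean TPM was 0.663. The median log2 fold change of KO+OE over control was 0.02 for the 22 genes and -0.01 for all genes tested, and 14 of the 22 had a positive and 8 a negative value.

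**Figure D2:**
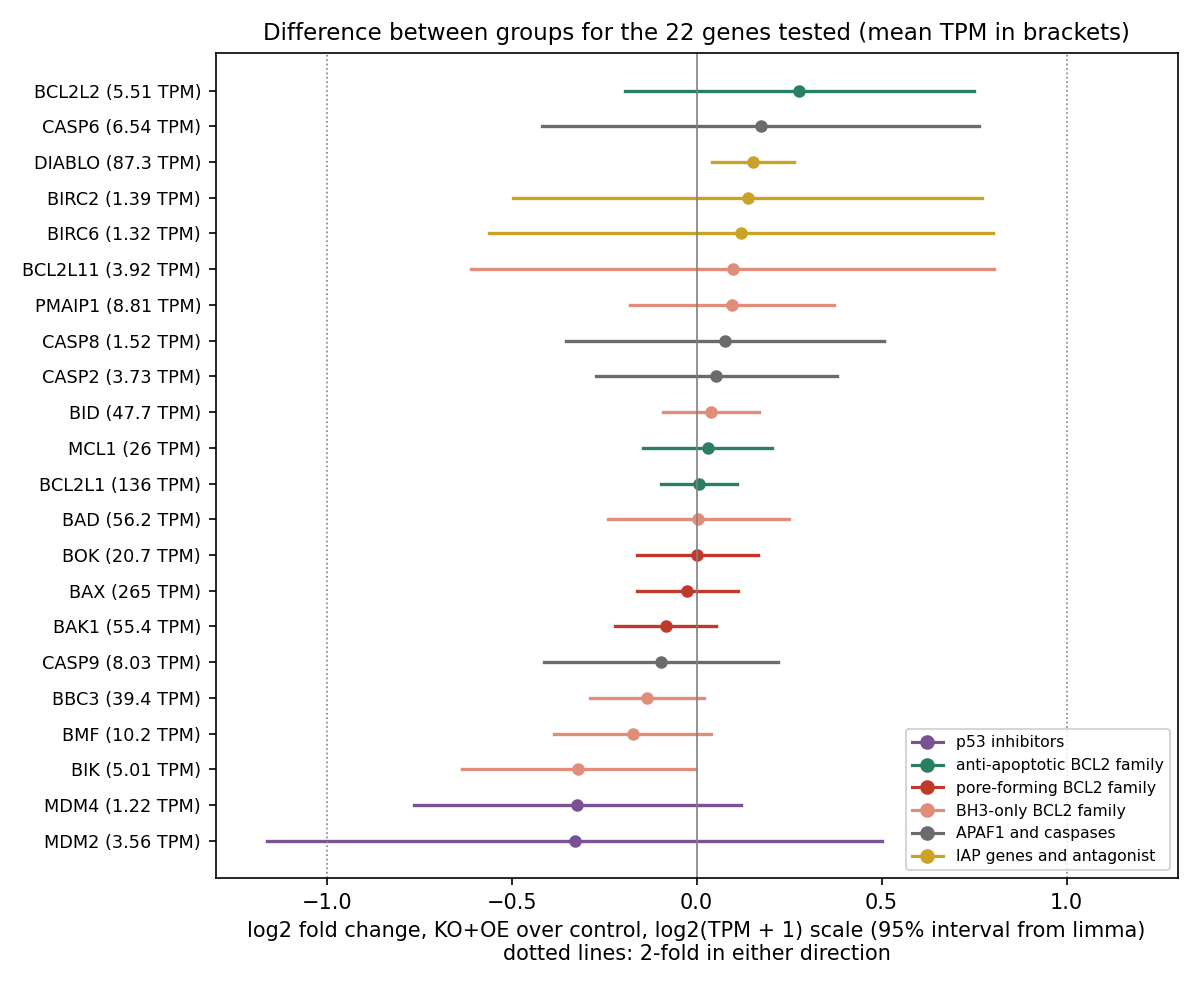
Log2 fold change of KO+OE over control on the log2(TPM + 1) scale with its 95% interval from limma, for the 22 genes tested, ordered by fold change and coloured by role (mean TPM in brackets). The intervals of DIABLO and BIK lie to either side of 0, and the other 20 cross it. The interval of MDM2 alone reaches past the dotted lines, which mark a 2-fold difference in TPM + 1 and not in TPM.

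The inhibitors of p53 were both low. MDM2 (chr12:68808172-68850686, GRCh38.p14), the ubiquitin ligase that marks p53 for degradation and is itself a p53 target, gave 5.80 and 2.57 TPM in the control pair and 3.17 and 2.69 TPM in the KO+OE pair. Its first control library stood high, and the other 3 libraries lay close together. The log2 fold change was -0.33 (95% interval -1.16 to 0.50, limma adjusted p = 0.959), and it was 0.14 without control replicate 1. The deposited values do not say how reads shared with the overlapping gene CPM were counted.

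MDM4 (chr1:204516406-204558120), which binds p53 and blocks its activation domain, reached 1.44 and 1.5 TPM in control cells, compared with 1.01 and 0.94 TPM in KO+OE cells. Both KO+OE libraries lay below both control libraries, by a ratio of mean TPM of 0.663. The log2 fold change was -0.32 (95% interval -0.76 to 0.12) with a limma adjusted p of 0.932. Leaving out any 1 library gave values from -0.35 to -0.30. The median over these 2 genes was -0.33, against -0.01 over all genes tested, and it became -0.10 when control replicate 1 was left out, -0.55 when control replicate 2 was left out and -0.15 with a pseudocount of 5.

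Of the 5 anti-apoptotic genes, BCL2L1 carried most of the RNA. BCL2L1 (chr20:31664452-31723963), which encodes BCL-XL, had 135.72 and 136.00 TPM in the control libraries, against 139.70 and 133.45 TPM in KO+OE. The control libraries lay between the KO+OE libraries, and the log2 fold change was 0.01 (95% interval -0.10 to 0.11, limma adjusted p = 0.990). BCL2L1 made up 81.2% and 81.7% of the summed anti-apoptotic TPM in control and 80.4% and 81.0% in KO+OE.

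MCL1 (chr1:150574558-150579610), a short-lived anti-apoptotic protein, gave 25.47 and 25.95 TPM in the control pair and 27.40 and 25.17 TPM in the KO+OE pair. Its groups overlapped, with a log2 fold change of 0.03 (95% interval -0.15 to 0.21). BCL2L2, which encodes BCL-W, reached 5.85 and 4.0 TPM in control cells, compared with 6.49 and 5.72 TPM in KO+OE cells. BCL2L2 had a log2 fold change of 0.28, with an interval from -0.19 to 0.75 and overlapping groups. Leaving out control replicate 1 gave 0.50, and leaving out control replicate 2 gave 0.05. The readthrough gene BCL2L2-PABPN1 covers the same locus, so its reads and those of BCL2L2 may have been split.

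BCL2 (chr18:63123346-63320090), after which the family is named, was low in these cells. It had 0.12 and 0.42 TPM in the control libraries, against 0.24 and 0.42 TPM in KO+OE, under the level required for the test. BCL2A1, an anti-apoptotic gene best known from blood cells, was listed at 0 in every library. The median log2 fold change of the 3 anti-apoptotic genes tested was 0.03.

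The pore-forming genes held the highest level of all 31. BAX (chr19:48954875-48961798) gave 271.24 and 263.35 TPM in the control pair and 274.99 and 250.52 TPM in the KO+OE pair, and the control libraries lay between the KO+OE libraries. Its log2 fold change was -0.03 (95% interval -0.16 to 0.11), with a limma adjusted p of 0.988. The interval corresponds to 0.893 to 1.08 times the control level on the same scale.

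BAK1 (chr6:33572552-33580276), the second main pore-forming protein, reached 55.81 and 58.23 TPM in control cells, compared with 55.17 and 52.38 TPM in KO+OE cells. The KO+OE libraries lay below the control libraries, with a gap of less than 1 TPM between the nearest libraries. Its log2 fold change was -0.08 (95% interval -0.22 to 0.05), with a limma adjusted p of 0.938. BOK, a relative with pore-forming activity of its own, had 20.68 and 20.61 TPM in the control libraries, against 21.05 and 20.29 TPM in KO+OE. BOK had the smallest log2 fold change of the 22 in either direction, 0.00 (95% interval -0.16 to 0.16). BAX exceeded BAK1 by 4.86 and 4.52 times in control and by 4.98 and 4.78 times in KO+OE, which overlapped.

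The BH3-only genes, which sense different kinds of damage, spread from BAD and BID down to HRK. BAD (chr11:64269828-64284704), which binds BCL2L1 when growth factor signalling is low, gave 60.80 and 51.60 TPM in the control pair and 53.60 and 58.94 TPM in the KO+OE pair. BAD overlaps GPR137, and the strand used in counting is not given in the sources used here. BID (chr22:17734138-17774665), which is cut by CASP8 and links death receptors to mitochondria, reached 48.07 and 46.06 TPM in control cells, compared with 48.86 and 47.91 TPM in KO+OE cells. Both genes overlapped between the groups, with log2 fold changes of 0.00 and 0.04.

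BBC3 and PMAIP1 are the BH3-only genes that p53 controls most directly. BBC3 (chr19:47220824-47232860), which encodes PUMA, had 42.85 and 39.65 TPM in the control libraries, against 37.45 and 37.47 TPM in KO+OE. The KO+OE libraries were nearly equal and lay below both control libraries. The log2 fold change was -0.13 (95% interval -0.29 to 0.02), with a limma adjusted p of 0.931. PMAIP1 (chr18:59899996-59904305), which encodes NOXA, gave 8.17 and 8.79 TPM in the control pair and 9.79 and 8.51 TPM in the KO+OE pair. Its value had the opposite sign, a log2 fold change of 0.10 (95% interval -0.18 to 0.37), and its groups overlapped.

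BMF and BIK were the other BH3-only genes with separate groups. BMF (chr15:40087890-40108879), which is held at the cytoskeleton in unstressed cells, reached 11.10 and 10.74 TPM in control cells, compared with 9.67 and 9.47 TPM in KO+OE cells. Its log2 fold change was -0.17 (95% interval -0.39 to 0.04, limma adjusted p = 0.931). BIK (chr22:43110750-43129712), which acts at the endoplasmic reticulum, had 5.58 and 5.76 TPM in the control libraries, against 4.02 and 4.69 TPM in KO+OE. The log2 fold change of BIK was -0.32 (95% interval -0.63 to -0.01), with a limma p of 0.0474 before and 0.931 after adjustment.

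BCL2L11, which encodes BIM, gave 2.71 and 4.88 TPM in the control pair and 4.78 and 3.32 TPM in the KO+OE pair. The 2 libraries of each group differed more than the groups did, and the interval of its log2 fold change of 0.10 ran from -0.61 to 0.80. HRK, a BH3-only gene known from neurons, reached 0.56 and 0.39 TPM in control cells, compared with 0.49 and 0.60 TPM in KO+OE cells, and was not tested. Of the 7 BH3-only genes tested, 4 had a positive and 3 a negative log2 fold change, with a median of 0.00.

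The pro- and anti-apoptotic sides were summed in each library. The 11 pro-apoptotic genes, which are the pore-forming and BH3-only genes together, summed to 527.57 and 510.06 TPM in control and to 519.87 and 494.1 TPM in KO+OE. The 5 anti-apoptotic genes summed to 167.16 and 166.37 TPM in control and to 173.83 and 164.76 TPM in KO+OE. Both sums overlapped between the groups.

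The ratio of the pro- to the anti-apoptotic sum was 3.16 and 3.07 in control and 2.99 and 3.00 in KO+OE. That is 3.11 ± 0.0638 (SD, n = 2) against 2.99 ± 0.00582 (SD, n = 2), lower in both KO+OE libraries than in both control libraries, with a difference of the log2 ratio of -0.05. The ratio was given no test, and leaving out 1 library at a time moved the difference of the log2 ratio between -0.08 and -0.03. BAX made up 51.4% and 51.6% of the pro-apoptotic sum in control and 52.9% and 50.7% in KO+OE. Without BAX the ratio was 1.533 and 1.483 in control and 1.409 and 1.478 in KO+OE, so that the nearest libraries of the 2 groups almost met. Without BAX and BCL2L1 it was 8.15 and 8.12 in control and 7.17 and 7.78 in KO+OE. The ratio of BAX to BCL2L1 alone was 1.999 and 1.936 in control and 1.97 and 1.88 in KO+OE, which overlapped.

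**Figure D3:**
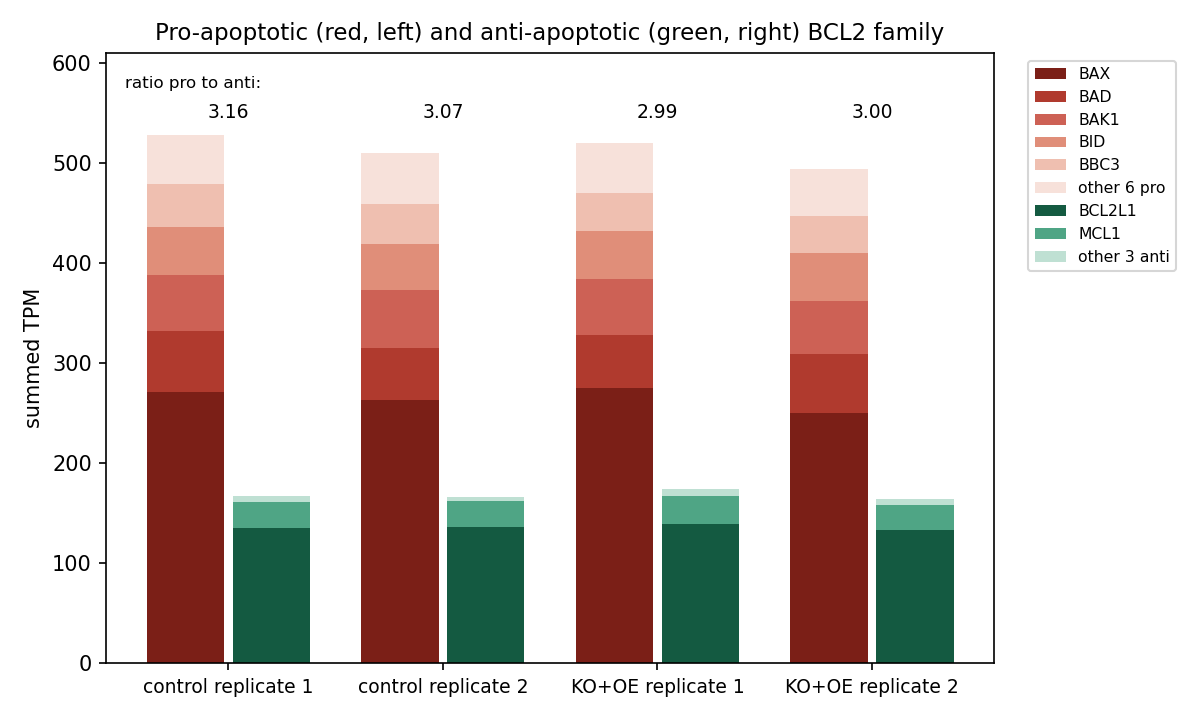
Summed TPM of the 11 pro-apoptotic genes (red, left bar) and the 5 anti-apoptotic genes (green, right bar) of the BCL2 family in each of the 4 libraries, stacked by gene, with the ratio of the sums above. BAX, the lowest and darkest part of each red bar, reaches 250.52 to 274.99 TPM, BCL2L1 fills most of each green bar, and the ratio lies between 2.99 and 3.16.

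The apoptosome scaffold and most caspases were at low levels. APAF1 had 0.37 and 0.39 TPM in the control libraries, against 0.28 and 0.42 TPM in KO+OE, and was not tested. APAF1 overlaps the coding gene ANKS1B, and how shared reads were counted is not given. CASP9 (chr1:15491401-15524912), the initiator that APAF1 activates, gave 8.79 and 7.85 TPM in the control pair and 7.05 and 8.41 TPM in the KO+OE pair. Its groups overlapped, with a log2 fold change of -0.10 (95% interval -0.41 to 0.22).

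CASP6 (chr4:109664388-109709767), an executioner caspase, reached 5.57 and 6.45 TPM in control cells, compared with 8.83 and 5.33 TPM in KO+OE cells. The first KO+OE library stood above the other 3, and the interval of its log2 fold change of 0.17 ran from -0.42 to 0.76. CASP6 overlaps MCUB. CASP2, an initiator that responds to faults of cell division, had 3.86 and 3.43 TPM in the control libraries, against 3.85 and 3.78 TPM in KO+OE. Its groups overlapped, with a log2 fold change of 0.05 (95% interval -0.27 to 0.38).

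CASP8, the initiator of the death receptor route, gave 1.33 and 1.59 TPM in the control pair and 1.59 and 1.59 TPM in the KO+OE pair. CASP10, its relative in the same gene cluster on chromosome 2, reached 0.50 and 0.44 TPM in control cells, compared with 0.62 and 0.50 TPM in KO+OE cells, and was not tested. The inflammatory caspases CASP1 and CASP4 were listed at 0 in every library. The 7 caspase genes summed to 20.05 and 19.76 TPM in control and to 21.94 and 19.61 TPM in KO+OE, which overlapped. Of the 4 caspase genes tested, 3 had a positive and 1 a negative log2 fold change, with a median of 0.06.

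The IAP genes were low beside their antagonist. DIABLO (chr12:122207662-122227456), the mitochondrial protein that frees caspases from IAP proteins, had 82.76 and 82.52 TPM in the control libraries, against 93.90 and 90.00 TPM in KO+OE. Both KO+OE libraries lay above both control libraries, by a ratio of mean TPM of 1.11. The log2 fold change was 0.15 (95% interval 0.04 to 0.26), with a limma p of 0.0166 before and 0.928 after adjustment. DIABLO overlaps B3GNT4 and another coding locus, and reads of the overlapping genes may not have been told apart. DIABLO relative to BAX was 0.305 and 0.313 in control and 0.341 and 0.359 in KO+OE.

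Of the IAP genes, XIAP, which blocks caspases directly, gave 0.65 and 1.02 TPM in the control pair and 0.44 and 0.93 TPM in the KO+OE pair and was not tested. BIRC2, a ubiquitin ligase of TNF receptor signalling, reached 1.54 and 0.99 TPM in control cells, compared with 1.90 and 1.11 TPM in KO+OE cells. BIRC6, a very large IAP protein with ubiquitin-conjugating activity, had 1.12 and 1.27 TPM in the control libraries, against 1.98 and 0.91 TPM in KO+OE. Both were high in the first KO+OE library and overlapped between the groups, with log2 fold changes of 0.14 and 0.12. BIRC3 was listed at 0.02 TPM in the first control library and at 0 in the other 3.

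The 4 IAP genes summed to 3.33 and 3.28 TPM in control and to 4.32 and 2.95 TPM in KO+OE. DIABLO exceeded this sum by 24.9 and 25.2 times in control and by 21.7 and 30.5 times in KO+OE, so the KO+OE libraries lay to either side of control.

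The wider p53 pathway was read from a list of 30 p53 target genes, of which 24 were tested and none passed the adjusted p. The median log2 fold change of those 24 was -0.03, against -0.01 over all genes, and 7 were positive and 17 negative. The signs were given no test, and their share over all genes was not taken. Their highest members were GDF15, a stress cytokine, at 190.68 and 195.98 TPM in control and 193.58 and 198.91 TPM in KO+OE, and CDKN1A, which encodes the cyclin-dependent kinase inhibitor p21. CDKN1A gave 166.28 and 157.34 TPM in the control pair and 165.47 and 154.59 TPM in the KO+OE pair. AEN, a nuclease of the apoptosis programme, followed with 114.79 and 114.69 TPM in the control pair and 114.73 and 110.71 TPM in the KO+OE pair. These 3 genes overlapped between the groups, with log2 fold changes of 0.02, -0.02 and -0.03.

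RRM2B, the p53-controlled subunit of ribonucleotide reductase, was the only one of the 24 targets tested with an unadjusted limma p under 0.05, a level that 5.33% of all genes passed. It reached 2.89 and 2.10 TPM in control cells, compared with 1.19 and 1.35 TPM in KO+OE cells, with separate groups. Its log2 fold change was -0.61 (95% interval -1.10 to -0.13), with a limma p of 0.0219 before and 0.928 after adjustment. Among the 24 targets tested, KO+OE lay wholly above control for 2 and wholly below for 6, against 14.5% and 19.6% of all genes tested.

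The partners of the caspase and mitochondrial steps gave the same count of calls. Of 8 genes of death receptor signalling, 7 were tested with limma and none passed, either at the adjusted p or at an unadjusted p of 0.05, with a median log2 fold change of -0.04. Their highest members were DEDD2 (mean ± SD over 2 libraries of 43.3 ± 1.87 TPM for control and 44.4 ± 0.75 TPM for KO+OE), the CASP8 adaptor FADD (38.6 ± 0.453 and 35.8 ± 2.42 TPM) and DEDD (28.6 ± 2.47 and 27.9 ± 1.37 TPM). Of 10 mitochondrial and IAP partners, 7 were tested and none passed at either level of limma, with a median of -0.02. VDAC2, the outer membrane channel that holds BAK1, had 312.80 and 293.71 TPM in the control libraries, against 300.34 and 271.62 TPM in KO+OE, and its relative VDAC1 gave 184.95 and 183.84 TPM in the control pair and 186.82 and 176.53 TPM in the KO+OE pair. AIFM1, a mitochondrial flavoprotein, averaged 26.6 ± 1.77 TPM over the control pair and 28.0 ± 1.33 TPM over the KO+OE pair (SD, n = 2).

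By their medians, genes of high level had shorter transcripts richer in G and C than genes of low level. Over the 31 genes, Spearman's rho between mean TPM and the GC content of the canonical transcript was 0.664, and that between mean TPM and transcript length was -0.415. Over the 22 genes tested the values were 0.686 and -0.698. The 10 genes at 10 TPM or more had a median GC content of 57.6% and a median length of 2173.5 bases. The 12 genes between 1 and 10 TPM had 42.9% and 3645 bases, and the 9 genes under 1 TPM had 41.8% and 5789 bases. The trend with length did not hold at the bottom, where BCL2A1, CASP4 and CASP1, listed at 0, had 780, 1296 and 1996 bases. TPM is itself divided by transcript length, and these values were not taken over all genes. All points share the same 4 libraries, so these values describe the table and carry no test. PMAIP1, at 36.7% GC and 8.81 TPM, and DIABLO, at 49.3% GC and 87.3 TPM, lay above other genes of like GC content.

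**Figure D4:**
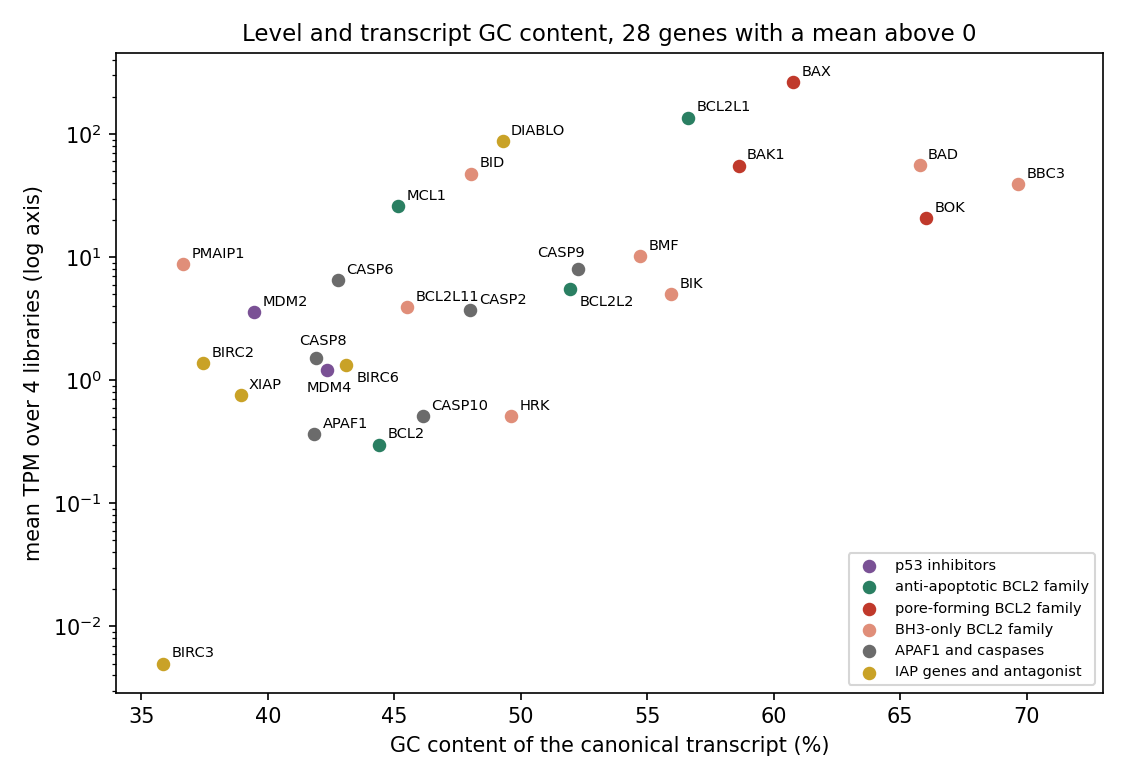
Mean TPM over the 4 libraries (log axis) against the GC content of the canonical transcript in percent for the 28 genes with a mean above 0, coloured by role. BAX, BCL2L1, BAK1, BAD, BOK and BBC3 lie at the upper right, and APAF1, BCL2 and the IAP genes lie lower and to the left.

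Promoters were searched for the p53 half-site, a palindrome of 10 letters, searched on both strands and by no other motif. RefSeq gives windows of 300 bases, from 250 before to 50 after a start of the gene, for 26 of the 31 genes and 47 windows in all, since a gene can have several starts. A half-site stood in 3 of the 47 windows, which is 6.38%, against 6.63% of the 35116 windows of all genes. The windows had a median GC content of 67.3%, against 58.7% over all windows. The 3 matches, which are all that were found, lay in the windows of BAK1, CASP8 and CASP9. They are shown with 25 bases to either side, 5′ to 3′ on the gene's strand, with the half-site in capitals.
BAK1, chr6:33580315-33580374, minus strand of GRCh38.p14: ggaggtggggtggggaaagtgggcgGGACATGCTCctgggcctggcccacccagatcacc
CASP8, chr2:201257889-201257948, plus strand, at a start within the gene: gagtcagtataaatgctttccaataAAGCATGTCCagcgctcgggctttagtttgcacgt
CASP9, chr1:15524944-15525003, minus strand: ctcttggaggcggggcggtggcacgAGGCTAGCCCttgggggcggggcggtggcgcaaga
The window of CASP9, like that of CASP8, was set from a start within the gene. A match is a description of these letters and not a bound site. BAX, BBC3, PMAIP1 and MDM2 had windows without a match, which says only that the half-site is not in those 300 bases.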

How the data were processed

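Poly(A+) RNA was measured in 2 control and 2 KO+OE libraries, grouped and numbered by their titles. The authors deposited 1 table of 60671 genes with a value per library and no unit in its header. The deposited values were taken as TPM, since they hold decimals and each column sums to nearly the same total, from 986853 to 987078. The table held 0 columns of other samples. The submitters' processing notes name HISAT2, featureCounts, Subread, DESeq2 and the build hg38, without versions, settings or strand. TPM keeps no counts, so no depth, counting error or count test could be had.

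TPM values were log2-transformed after adding 1. A linear model with the group as its single term was fitted in limma 3.58.1 under R 4.3.3 to the 12319 genes whose mean reached 1 TPM. The variance prior of eBayes was let follow the mean level, tests were two-sided, and p-values were adjusted over all 12319 genes by the Benjamini-Hochberg method. The step was tested on simulated data. Medians, ratios of sums and counts of signs carry no test, and the share of each sign over all genes was not taken. Named are all 31 genes, NUDT21, the identity markers and, of each other list, the 3 highest genes and any with an unadjusted p under 0.05. The members and lists were chosen with earlier results of these data known. The alternatives were a pseudocount of 0.1 or 5, testing without a filter or with one at 5 TPM, median-ratio rescaling, quantile normalization, no mean-dependent prior, the replicate block and leaving out each library.

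Positions, overlapping genes and promoters came from RefSeq on GRCh38.p14, and transcript and coding sequences from GENCODE release 44 in its GRCh37 version (letters only, no coordinates), matched by identifier or symbol. Promoter windows were found for 26 of the 31 genes, and BCL2L2, MCL1, BIK, CASP1 and CASP10 had none. Python 3.11.15 with pandas 2.3.3, numpy 2.4.6 and matplotlib 3.10.9 made the tables and figures. Some genes of the pathway are not reported here.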

Additional observations from a re-analysis of the deposited data

How the results depend on the processing

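No member passed an adjusted p of 0.05 under any of the 12 alternatives, and the lowest adjusted p of a member was 0.852. The limma p of DIABLO ran from 0.00888 to 0.0883 and that of BIK from 0.0292 to 0.188. The number of members at an unadjusted p of 0.05 was 2, and it was 1 with a pseudocount of 5, a filter at 5 TPM, median-ratio rescaling or the replicate block, and 0 to 2 when 1 library was left out, with 0 without KO+OE replicate 1. The genes that passed were not always these 2, since MDM4 and BIK passed without the mean-dependent prior, BCL2L2 without control replicate 1, MDM2 and BBC3 without control replicate 2, and DIABLO and CASP6 without KO+OE replicate 2. The 1 gene called over the whole table became 0 with a pseudocount of 0.1 or 5, without a filter, with a filter at 5 TPM, and with quantile normalization and the replicate block, and 0 to 1 when 1 library was left out. The counts at an unadjusted p of 0.05 over all genes were 656 as reported and then 670, 634, 1314, 412, 649 and 673 under those 6 settings in turn. The caspase median of 0.0648 was 0.0934 with a pseudocount of 0.1, 0.0288 with 5 and 0.0381 with the filter at 5 TPM. The filter at 5 TPM left no p53 inhibitor to test. The cause of these moves was not tested, other than the fewer or more genes tested under the filters.

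When 1 library was left out, the lone library of a group was assumed to vary like the other group. With all 4 libraries, the pro-apoptotic median of -0.0123 was 0.0014 without a filter, 0.0006 with median-ratio rescaling and 0.0019 with quantile normalization. With 1 library left out, medians ran from -0.0256 to 0.0886 for the anti-apoptotic and from -0.1028 to -0.0098 for the pro-apoptotic genes. They ran from 0.0293 to 0.0701 for the caspase and from -0.5495 to -0.1022 for the p53 inhibitor genes. The median over DIABLO and the IAP genes tested, BIRC2 and BIRC6, ran from -0.0916 to 0.3673. The log2 fold change of NUDT21 ran from -0.0121 to 0.0656. The sign turned for 12 of the 22 members and for none under the other alternatives. Their ranges were -0.79 to 0.14 for MDM2, -0.0256 to 0.0399 for BCL2L1, -0.0294 to 0.0886 for MCL1, -0.093 to 0.041 for BAX, -0.0239 to 0.0267 for BOK, -0.11 to 0.12 for BAD and -0.23 to 0.43 for BCL2L11. They were -0.21 to 0.0157 for CASP9, -0.14 to 0.49 for CASP6, -0.0135 to 0.12 for CASP2, -0.0916 to 0.37 for BIRC2 and -0.20 to 0.44 for BIRC6. The replicate numbers are shared between the groups, but the deviations of same-numbered libraries had a correlation of -0.0485, so the numbers were not taken to pair the libraries. Unknown depth limits the genes under 1 TPM most.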

Other observations

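Relatives of the BCL2 family outside the 31 genes were measured in the same libraries. BCL2L12 stood highest of 10 such genes, with 106 ± 1.92 TPM (SD, n = 2) in the control libraries and 102 ± 3.62 TPM in the KO+OE libraries. BCL2L13, a mitochondrial outer membrane protein, was at 16.8 ± 0.269 and 18.04 ± 0.219 TPM, with both KO+OE libraries above both control libraries. That held for 1 of the 7 relatives tested, against 14.5% of all genes tested. BNIP3, a mitophagy receptor, was at 16.9 ± 1.35 and 16.7 ± 0.134 TPM. Of the 10 relatives 7 were tested and none passed the adjusted p in limma, and none had an unadjusted p under 0.05, with 2 positive and 5 negative log2 fold changes and a median of -0.02. Of 11 kinases and regulators that act on p53, 9 were tested and none passed, none at an unadjusted p under 0.05 either, with a median of 0.00. The ribosomal proteins RPL11 and RPL5, which bind MDM2 when ribosome assembly is disturbed, had 1982 ± 41.1 and 594 ± 11.96 TPM in the control libraries. In the KO+OE libraries they had 2029 ± 55.01 and 590.3 ± 17.2 TPM. The checkpoint kinase CHEK2 was at 47.4 ± 0.665 and 47.9 ± 1.09 TPM.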
